A study of Mus musculus with 12 samples.

Results

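The 31 genes described here make, move and regulate cholesterol. The list was drawn up by gene symbol from each gene's known role, with earlier results of these data known, and its genes are 31 of the 24502 genes in the deposited table. All 31 passed the filter on low counts that left 14827 genes for testing. They fall into 20 synthesis enzymes, 5 genes of the control system built on the sterol regulatory element-binding proteins (SREBPs), and 6 genes of sterol uptake, transport and efflux. Companion lists of other pathway genes are described after them, and some well-known pathway genes are not analysed here.

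The study sequenced the mRNA of regulatory T (Treg) cells, the CD4+ T cells that restrain immune responses, in 12 libraries of 4 groups, 3 libraries per group. Gpx4-deficient cells, stimulated or unstimulated, came from mice of the genotype Foxp3CreGpx4fl/fl, in which the recombinase Cre is expressed under Foxp3 and removes the glutathione peroxidase gene Gpx4 from Foxp3-expressing cells. Wild-type cells, stimulated or unstimulated, came from mice labelled only WT, so that an effect of the Cre allele itself and an effect of losing Gpx4 cannot be told apart. All mice were 11 weeks old. Stimulated cells were held for 4 h on plates coated with antibodies to CD3 and CD28 (5 µg/ml), which mimic antigen and costimulation. How long the unstimulated cells were kept in culture is not given in the labels. Each library was prepared from 600 ng of RNA with a kit that keeps the strand. GPX4 reduces lipid hydroperoxides and so protects cells from ferroptosis, an iron-dependent death driven by lipid peroxidation.

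Cholesterol is built from acetyl-CoA through mevalonate, farnesyl diphosphate, squalene and lanosterol, and the branches of the mevalonate part also feed protein prenylation, coenzyme Q and the isopentenyl mark on the tRNA that inserts selenocysteine into GPX4. When sterols are scarce, the escort protein SCAP carries SREBPs from the endoplasmic reticulum to the Golgi, where they are cut, and SREBP-2 then activates the synthesis and uptake genes. INSIG proteins hold SCAP back when sterols are plentiful, and liver X receptors (LXRs), activated by oxysterols, induce the efflux genes Abca1 and Abcg1. In T cells, activation is known to raise sterol synthesis and to lower LXR signalling.

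Promoter windows running from 250 bases before to 50 bases after the annotated gene start were taken from RefSeq (build GRCm38.p6). They were found for 25 of the 31 genes, as 33 windows. Those printed belong to Hmgcs1, Msmo1, Srebf2 and Lbr. The Hmgcs1 window was the one member window with an exact match to the sterol regulatory element TCACNCCAC. Msmo1 was the one member called higher in any comparison of the main edgeR fit. Srebf2 encodes SREBP-2, and Lbr was the most highly expressed member per kilobase of exon. Each window is written 5′ to 3′ on the strand of its gene. Capitals mark the sterol regulatory element TCACNCCAC and the CCAAT box, CCAAT or its reverse complement ATTGG, the box bound by NF-Y, a known partner of SREBPs.
Hmgcs1, chr13:119690101-119690400, plus strand: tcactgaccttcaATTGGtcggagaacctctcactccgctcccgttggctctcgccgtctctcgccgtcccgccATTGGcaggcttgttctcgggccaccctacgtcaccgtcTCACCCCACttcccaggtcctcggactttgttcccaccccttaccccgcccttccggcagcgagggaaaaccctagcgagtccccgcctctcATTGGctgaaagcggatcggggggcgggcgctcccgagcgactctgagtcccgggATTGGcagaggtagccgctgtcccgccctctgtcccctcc
Msmo1, chr8:64733529-64733828, minus strand: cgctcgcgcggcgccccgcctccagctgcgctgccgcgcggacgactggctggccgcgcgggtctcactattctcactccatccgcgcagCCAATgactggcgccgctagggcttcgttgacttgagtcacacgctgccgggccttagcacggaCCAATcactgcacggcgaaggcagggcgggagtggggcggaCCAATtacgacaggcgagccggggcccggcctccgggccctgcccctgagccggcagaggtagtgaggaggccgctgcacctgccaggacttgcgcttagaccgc
Srebf2, chr15:82147019-82147318, plus strand: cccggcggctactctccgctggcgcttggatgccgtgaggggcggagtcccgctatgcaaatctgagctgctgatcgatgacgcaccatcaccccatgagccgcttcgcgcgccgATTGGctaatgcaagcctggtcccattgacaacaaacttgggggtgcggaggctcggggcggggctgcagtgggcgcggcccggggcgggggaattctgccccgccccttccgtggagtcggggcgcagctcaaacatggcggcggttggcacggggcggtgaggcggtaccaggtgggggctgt
Lbr, chr1:181842352-181842651, minus strand: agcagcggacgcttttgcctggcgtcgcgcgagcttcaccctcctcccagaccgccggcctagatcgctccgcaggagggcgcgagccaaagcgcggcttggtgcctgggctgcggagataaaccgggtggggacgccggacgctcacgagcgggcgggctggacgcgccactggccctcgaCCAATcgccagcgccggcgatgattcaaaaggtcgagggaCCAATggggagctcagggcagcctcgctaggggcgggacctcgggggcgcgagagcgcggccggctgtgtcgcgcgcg
In the Hmgcs1 window the element read TCACCCCAC on the strand of the gene and began at position -137 from the RefSeq gene start. For Hmgcs1 and Lbr, the first transcribed bases of the window were not found in the transcripts of the GENCODE gene annotation. Their gene starts are therefore uncertain. The 20 windows of synthesis enzymes belonged to 17 enzymes, since some enzymes had several windows and others had none. With both strands searched, TCACNCCAC was in 1 of these 20 windows (5.0%), against 408 of 32851 RefSeq windows (1.24%). The CCAAT box was in 16 of the 20 synthesis windows (80.0%), against 37.4% of all windows. The GC box GGGCGG was also in 16 of those 20 (80.0%), against 35.7% of all windows. The windows of SREBP control genes and of transport genes held no TCACNCCAC (0 of 10 and 0 of 3). These matches describe the letters in the windows only. Only exact matches were counted, so a window without one may still hold a variant of the element.

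The libraries held 24629230 to 31879267 expected counts. Gpx4 itself was at 3.34 to 12.3 CPM (counts scaled to a common library size) in the 6 Gpx4-deficient libraries, against 69.2 to 172 CPM in the 6 wild-type libraries. Foxp3 was at 22.3 to 75.9 CPM in Gpx4-deficient libraries and at 20.6 to 43.5 CPM in wild-type libraries, and Cd3e and Cd4 were at 237 CPM or more in all 12. No library was without markers of other cells: the 9 macrophage and monocyte markers summed to 56.3 to 82.8 CPM in stimulated Gpx4-deficient libraries, 22.0 to 60.0 CPM in stimulated wild-type libraries, and without stimulation to 142 to 174 CPM in Gpx4-deficient and 156 to 280 CPM in wild-type libraries. The 3 erythroid markers summed to 19.8 to 21.4 CPM in stimulated Gpx4-deficient libraries and to 4.93 to 7.53 CPM in stimulated wild-type libraries, without overlap; all 3 had a positive log2 fold change, 2 with an unadjusted p under 0.05 and none called, and their part in the stimulated genotype comparison was not tested. The library numbers of the 2 genotypes come from separate runs of numbers in the labels, so a difference in preparation and the genotype cannot be told apart. Nothing in the labels says that libraries came from separate mice, so the p-values below measure the spread between libraries, which may be technical. Each gene has 1 estimate of that spread, shared by all 4 groups, although the groups differed. The median SD of log2 CPM over all tested genes was 0.56 in stimulated Gpx4-deficient and 0.31 in stimulated wild-type libraries. Without stimulation it was 0.39 in Gpx4-deficient and 0.27 in wild-type libraries. The SEs and p-values below are therefore not based on the compared groups alone. In bulk RNA, fewer cells of a type and less RNA per cell cannot be told apart.

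The stimulated Gpx4-deficient libraries stood apart from the rest in how many genes dropped to almost nothing. Of the 30 members with a mean of at least 5 CPM over all libraries, 3, 2 and 5 were under 1 CPM in stimulated Gpx4-deficient libraries 1, 2 and 3, against 0, 1 and 2 in the stimulated wild-type libraries and 0 in each of the 6 unstimulated libraries. They were Mvk, Nsdhl and Abca1 in library 1, Lss and Hsd17b7 in library 2, and Mvk, Mvd, Lss, Hsd17b7 and Abca1 in library 3; in wild type they were Mvd in library 2, and Abca1 and Mylip in library 3. Over the 9997 tested genes with that mean, 5.10% to 11.0% were under 1 CPM in the stimulated Gpx4-deficient libraries, against 0.930% to 2.08% in the stimulated wild-type libraries. The median SD of the members' log2 CPM was 0.77 in stimulated Gpx4-deficient libraries and 0.30 in stimulated wild-type libraries. Mitochondrial transcripts made up 2.84% to 3.72% of the counts in stimulated Gpx4-deficient libraries and 1.18% to 1.37% in stimulated wild-type libraries. The part of these differences in the results below was not tested.

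**Figure D1:**
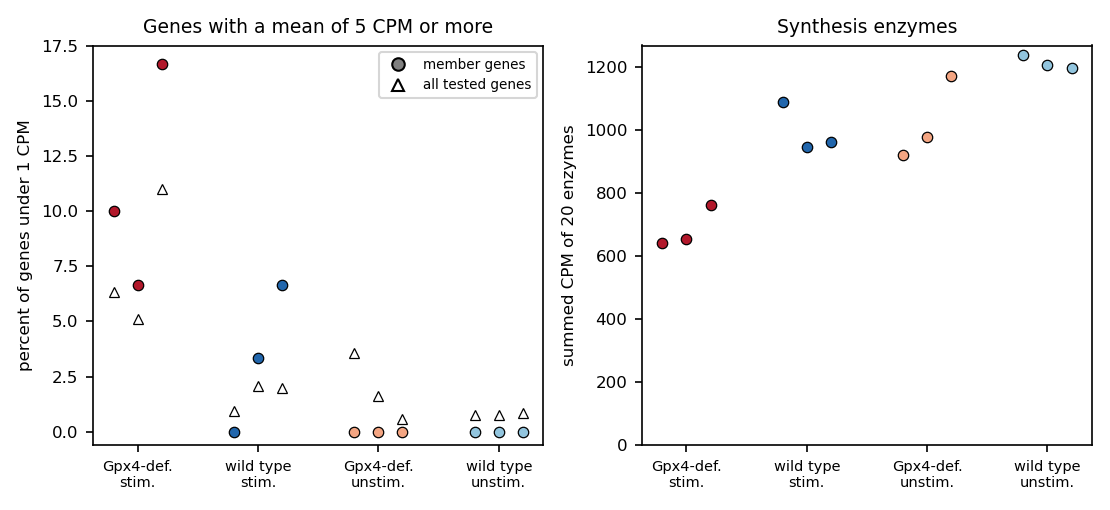
Left, the percent of genes under 1 CPM in each library, among genes with a mean of at least 5 CPM over all libraries, for the 30 such member genes (filled circles) and for all 9997 such genes (open triangles); right, the summed CPM of the 20 synthesis enzymes in each library. The stimulated Gpx4-deficient libraries have the highest share of all genes under 1 CPM, 5.10% to 11.0%, and the lowest enzyme sums, 643 to 763 CPM.

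The first comparison asked what losing Gpx4 did to these genes in stimulated cells. Most synthesis enzymes read lower in Gpx4-deficient cells, but no single gene of the 31 passed the test: edgeR called 0 of 31 members at an adjusted p under 0.05, against 337 of 14827 genes (2.27%). Of the 31 members, 27 had a negative log2 fold change, against 49.5% of all genes tested, and the median was -0.28 for the members and 0 for all genes. Fdft1, at -0.01, changed sign under another scaling, and the other 30 did not. The synthesis enzymes had a median of -0.39 with 18 of 20 negative, the SREBP control genes a median of -0.46 with 5 of 5 negative, and the transport genes a median of -0.05 with 4 of 6 negative. Summed over the 20 enzymes, stimulated Gpx4-deficient libraries held 643, 656 and 763 CPM, and stimulated wild-type libraries 1090, 946 and 962 CPM, without overlap.

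At an unadjusted p under 0.05, 8 of the 31 members passed, against 18.3% of all genes. DESeq2 called 7 of the 29 members it tested (Idi1, Fdps, Cyp51, Msmo1, Dhcr7, Srebf2 and Abcg1), against 13.1% of all the genes it tested. The limma-voom test called 2 (Idi1 and Cyp51), against 3.19%. The 3 libraries of one group lay all above or all below those of the other for 7 of the 31 members (22.6%), against 20.1% of all genes, a share near the background. They were the 7 genes that DESeq2 called.

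Idi1, the isomerase that turns isopentenyl diphosphate into its reactive partner, had 33.1, 37.0 and 14.3 CPM in stimulated Gpx4-deficient libraries, against 98.6, 53.2 and 91.6 CPM in stimulated wild-type libraries. Every Gpx4-deficient library was below every wild-type library. Its log2 fold change was -1.53 ± 0.37 (SE), the smallest p of the members (adjusted p = 0.0565). The annotated copy Gm13502 is identical to Idi1 over 684 bases, so reads can be split between them. Gm13502 was at 3.59, 5.86 and 3.02 CPM in stimulated Gpx4-deficient and 3.17, 1.93 and 3.72 CPM in stimulated wild-type libraries. Its highest share of Idi1 plus copy in any library was 17.5%.

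Cyp51, the demethylase that starts the conversion of lanosterol, had 18.2, 41.9 and 73.2 CPM in stimulated Gpx4-deficient libraries, against 133, 118 and 110.3 CPM in stimulated wild-type libraries. The groups did not overlap, and the Gpx4-deficient libraries spread over a wide range. Its log2 fold change was -1.44 ± 0.43 (SE, edgeR adjusted p = 0.112). Msmo1, the methylsterol monooxygenase that acts after Cyp51, had 70.1, 23.9 and 49.7 CPM in stimulated Gpx4-deficient libraries, against 94.8, 105 and 86.3 CPM in stimulated wild-type libraries. Its groups did not overlap either, with a log2 fold change of -0.99 ± 0.33 (SE, edgeR adjusted p = 0.149).

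Fdps, the synthase of farnesyl diphosphate, from which sterols and prenyl groups branch, had 11.3, 45.4 and 22.6 CPM in stimulated Gpx4-deficient libraries, against 65.3, 46.9 and 71.5 CPM in stimulated wild-type libraries. The highest Gpx4-deficient library and the lowest wild-type library almost met, and the log2 fold change was -1.21 ± 0.40 (SE, edgeR adjusted p = 0.146). Dhcr7, the reductase that makes cholesterol from 7-dehydrocholesterol, a sterol known from other cell systems to trap lipid radicals and restrain ferroptosis, had 2.12, 5.83 and 7.35 CPM in stimulated Gpx4-deficient libraries, against 16.6, 11.9 and 11.0 CPM in stimulated wild-type libraries. All 3 Gpx4-deficient values were below the wild-type ones, with a log2 fold change of -1.37 ± 0.50 (SE, edgeR adjusted p = 0.186).

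**Figure D2:**
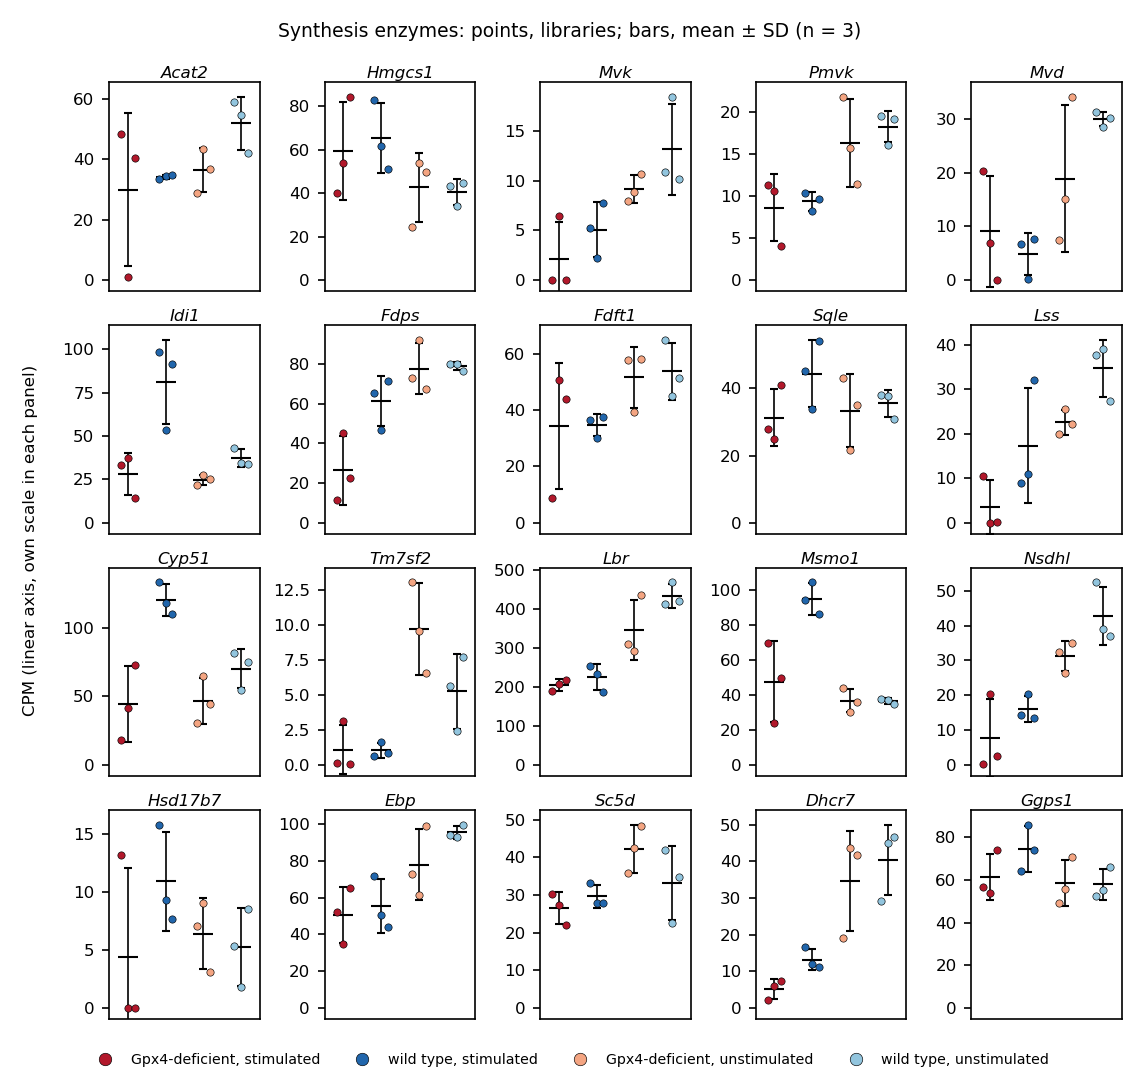
CPM of each of the 20 synthesis enzymes in every library (points), with group means ± SD over 3 libraries (bars), on a linear axis of its own scale in each panel. In the stimulated Gpx4-deficient group, Acat2, Mvk, Mvd, Lss, Nsdhl and Hsd17b7 each combine a library near 0 with one well above it, while Lbr stays within 189 to 219 CPM.

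The remaining 15 enzymes gave adjusted p-values of 0.438 to 1 in this comparison. Acat2, the cytosolic thiolase that opens the pathway (and not the sterol esterifying enzyme of the same alias), averaged 29.9 ± 25.2 CPM in stimulated Gpx4-deficient libraries and 34.1 ± 0.655 CPM in stimulated wild-type libraries (SD, n = 3 each). One Gpx4-deficient library, at 1.11 CPM, made that spread. Hmgcs1, which makes HMG-CoA, averaged 59.4 ± 22.6 CPM in Gpx4-deficient and 65.3 ± 16.2 CPM in wild-type libraries, with overlapping groups. Among the 3 enzymes that convert mevalonate to isopentenyl diphosphate, stimulated Gpx4-deficient libraries averaged 2.15 ± 3.70 CPM of mevalonate kinase (Mvk), 8.60 ± 4.00 CPM of phosphomevalonate kinase (Pmvk) and 9.08 ± 10.4 CPM of the decarboxylase Mvd. Stimulated wild-type libraries averaged 5.07 ± 2.81 CPM of Mvk, 9.35 ± 1.09 CPM of Pmvk and 4.85 ± 4.00 CPM of Mvd, so each difference lay within the spread. Ggps1, which makes geranylgeranyl diphosphate for prenylation rather than sterols, averaged 61.5 ± 10.8 CPM in stimulated Gpx4-deficient libraries and 74.6 ± 10.9 CPM in stimulated wild-type libraries.

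The squalene steps overlapped between the genotypes in stimulated cells. Squalene synthase (Fdft1) averaged 34.5 ± 22.5 CPM in Gpx4-deficient and 34.7 ± 4.04 CPM in wild-type libraries. Squalene epoxidase (Sqle), a rate-limiting step, averaged 31.3 ± 8.60 CPM in Gpx4-deficient and 44.4 ± 10.1 CPM in wild-type libraries. Lanosterol synthase (Lss), which closes the sterol ring, was at 10.5, 0 and 0.113 CPM in Gpx4-deficient libraries and at 8.86, 10.9 and 32.1 CPM in wild-type libraries, so that one Gpx4-deficient library lay within the wild-type range and the other two near 0.

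Later steps were as mixed. The reductase Lbr, also a receptor for lamins in the inner nuclear membrane, averaged 205 ± 15.2 CPM in stimulated Gpx4-deficient libraries and 225 ± 33.1 CPM in stimulated wild-type libraries. Tm7sf2, the other sterol reductase of that step, was at 3.15 CPM or less in all 6 libraries, and it shares 532 exon bases on its own strand with Vps51, which was at 73.8 CPM or more in every library, so its few counts are uncertain. Nsdhl, a dehydrogenase of sterol demethylation, was at 0.251, 20.5 and 2.56 CPM in Gpx4-deficient libraries and at 14.4, 20.3 and 13.6 CPM in wild-type libraries. Hsd17b7, the reductase of the same demethylation, was at 13.2, 0 and 0 CPM in Gpx4-deficient libraries and at 15.8, 9.31 and 7.68 CPM in wild-type libraries. For both genes the groups overlapped through the highest Gpx4-deficient library. The sterol isomerase Ebp averaged 50.7 ± 15.2 CPM in stimulated Gpx4-deficient libraries against 55.4 ± 14.6 CPM in wild type, and the desaturase Sc5d 26.6 ± 4.21 CPM against 29.7 ± 3.02 CPM.

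Srebf2, which encodes the SREBP that drives sterol synthesis, had 188, 245 and 258 CPM in stimulated Gpx4-deficient libraries, against 335, 318 and 298 CPM in stimulated wild-type libraries. Each Gpx4-deficient library was below each wild-type library, and the log2 fold change was -0.46 ± 0.14 (SE, edgeR adjusted p = 0.113). Srebf1, whose products lean towards fatty acid synthesis, had 227, 85.1 and 76.3 CPM in Gpx4-deficient libraries, against 163, 119 and 136 CPM in wild-type libraries. One Gpx4-deficient library was the highest of the 6 and the other two were the lowest, so the groups overlapped (adjusted p = 0.928). Scap averaged 157 ± 52.1 CPM in stimulated Gpx4-deficient libraries and 175 ± 22.2 CPM in stimulated wild-type libraries. Insig1, itself an SREBP target, was at 7.07, 33.5 and 46.4 CPM in Gpx4-deficient libraries and 55.4, 56.3 and 41.8 CPM in wild-type libraries, and overlapped through a single library (adjusted p = 0.44). Insig2, the other SCAP anchor, averaged 17.4 ± 10.4 CPM in Gpx4-deficient and 32.9 ± 5.81 CPM in wild-type libraries (adjusted p = 0.454).

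Abcg1, an exporter of cholesterol to lipoproteins and an LXR target, was the one transport gene with separated groups in stimulated cells, and it ran the other way. It had 107, 52.3 and 58.8 CPM in stimulated Gpx4-deficient libraries, against 24.6, 39.1 and 31.8 CPM in stimulated wild-type libraries. All 3 Gpx4-deficient libraries were above the wild-type ones, with a log2 fold change of 1.19 ± 0.30 (SE, edgeR adjusted p = 0.0661). The macrophage and monocyte markers, cells that also carry Abcg1, summed to 56.3 to 82.8 CPM in the stimulated Gpx4-deficient libraries and to 22.0 to 60.0 CPM in the stimulated wild-type libraries. Of the 9 markers, the 8 tested all had a positive log2 fold change and none was called. Their defining gene Csf1r was at 0.0359, 0.123 and 21.5 CPM in Gpx4-deficient libraries and at 0.0813, 0 and 0.121 CPM in wild-type libraries, and Fcgr1 was at 0 in all 6. The part of such cells in the Abcg1 value was not tested.

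Abca1, the exporter that loads apolipoproteins, was low in stimulated cells, with 0, 1.23 and 0 CPM in Gpx4-deficient libraries and 10.5, 7.77 and 0 CPM in wild-type libraries (adjusted p = 0.329). Stard4, a carrier that moves sterol between membranes inside the cell, had 22.9, 5.49 and 5.09 CPM in Gpx4-deficient libraries, against 32, 31.9 and 22.1 CPM in wild-type libraries. The groups overlapped through the highest Gpx4-deficient and the lowest wild-type library, and the log2 fold change was -1.36 ± 0.59 (SE, edgeR adjusted p = 0.25). Npc1, which lets cholesterol out of lysosomes, averaged 33.9 ± 16.9 CPM in stimulated Gpx4-deficient libraries and 34.8 ± 10.4 CPM in stimulated wild-type libraries. Nr1h2, the gene of LXR beta, averaged 143 ± 11.7 CPM in Gpx4-deficient and 149 ± 14.2 CPM in wild-type libraries. Mylip, the LXR target that marks lipoprotein receptors for degradation, averaged 11.5 ± 5.67 CPM in Gpx4-deficient and 10.9 ± 9.49 CPM in wild-type libraries.

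**Figure D3:**
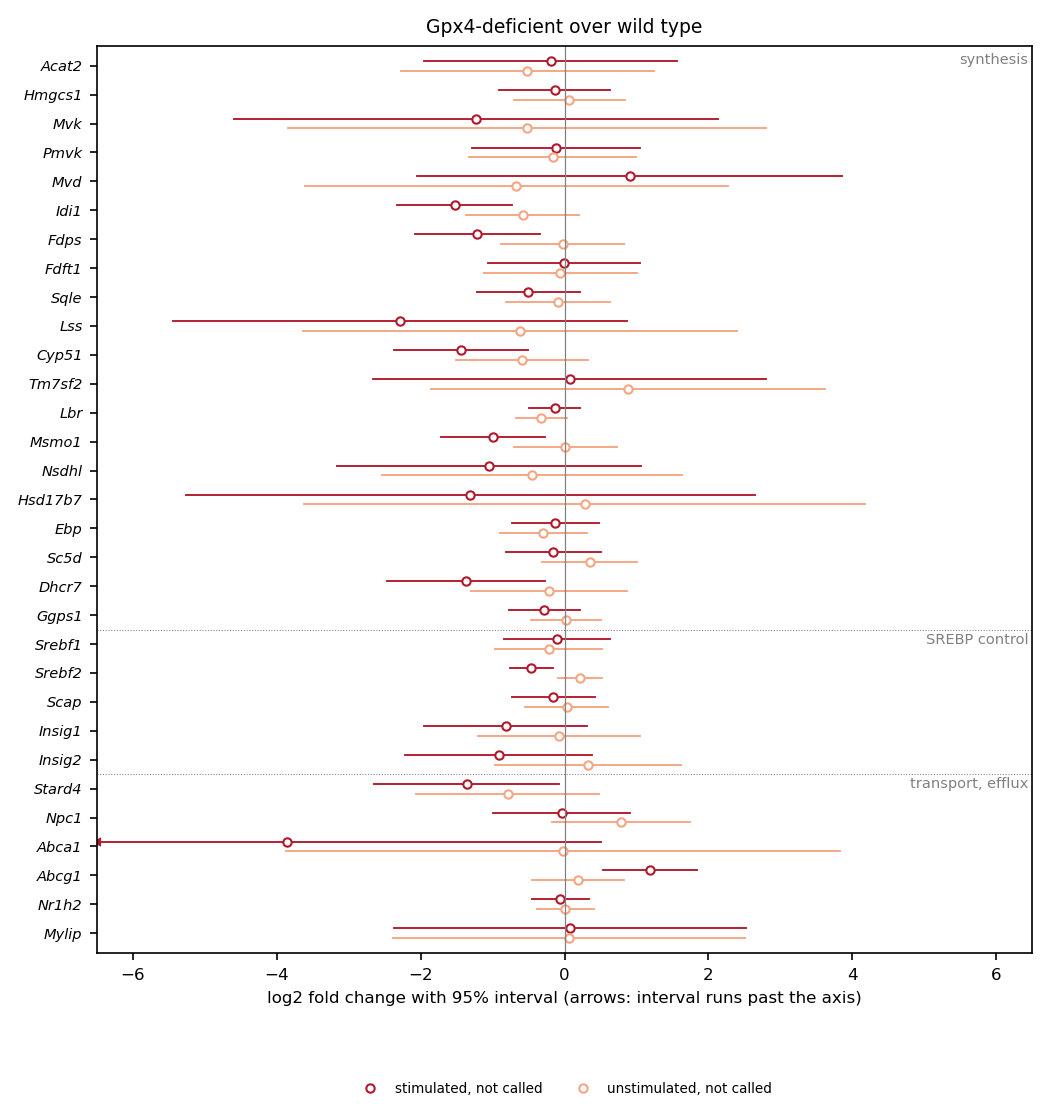
Log2 fold change of Gpx4-deficient over wild-type cells for all 31 members (rows), with 95% intervals, in stimulated cells (dark open points, upper of each pair) and unstimulated cells (light open points, lower). No point passed an adjusted p of 0.05; in stimulated cells 27 of 31 points lie left of 0, and Abcg1, at 1.19, lies farthest to the right.

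Single libraries decided the calls in this comparison. Without stimulated Gpx4-deficient library 1, edgeR called 5 members (Lss, Msmo1, Hsd17b7, Srebf1 and Stard4, all lower), against 4.13% of all genes in that fit. Without library 2 it called 5 others (Mvk, Idi1, Fdps and Nsdhl lower, Abcg1 higher), against 3.95% of all genes. Without library 3 it called 1, Cyp51, lower, against 2.44% of all genes. For each gene called lower, the library left out held the highest of the 3 stimulated Gpx4-deficient values, and for Abcg1 the lowest. These calls therefore depend on which library was removed. Leaving out any of the other 9 libraries left 0 called.

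In unstimulated cells no member was called between genotypes. edgeR called 0 of 31 members, against 10 of all 14827 genes (0.0674%), and no member had an unadjusted p under 0.05, against 5.8% of all genes. DESeq2 also called 0 of the 29 members it tested, and limma-voom 0 of the 31, of 218 and 21 genes called in all. The median log2 fold change was -0.06 over the members and -0.19 over the synthesis enzymes, 14 of 20 negative, against 0.01 over all genes. For 6 members (19.4%) the groups did not overlap, against 18.3% of all genes, a share near the background. Neutrophil markers were lower in Gpx4-deficient libraries, with 6 of 6 tested markers below every wild-type library and sums of 1.30 to 7.11 CPM, against 31 to 133 CPM in wild type, and their part in these values was not tested.

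Those 6 were Idi1, Lss, Nsdhl, Srebf1 and Stard4, lower in Gpx4-deficient libraries, and Npc1, higher. Idi1 had 21.6, 27.3 and 25.2 CPM in unstimulated Gpx4-deficient libraries and 43.0, 34.2 and 34.0 CPM in unstimulated wild-type libraries, a log2 fold change of -0.58 ± 0.36 (SE, edgeR adjusted p = 1). Stard4 had 8.86, 11.6 and 14.6 CPM in Gpx4-deficient libraries, against 17.8, 18.2 and 24.6 CPM in wild-type libraries (adjusted p = 1). Npc1 had 85.3, 42.4 and 37.7 CPM in Gpx4-deficient libraries, against 37.4, 23.1 and 35.7 CPM in wild-type libraries, where one Gpx4-deficient library stood well above the rest (log2 fold change 0.78 ± 0.44 SE, edgeR adjusted p = 0.966).

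Lbr had the smallest p in unstimulated cells, with 311, 293 and 435 CPM in Gpx4-deficient libraries and 412, 468 and 420.0 CPM in wild-type libraries. The groups overlapped through 1 library, and the log2 fold change was -0.32 ± 0.16 (SE, edgeR adjusted p = 0.902). Srebf2 had 424, 423 and 352 CPM in unstimulated Gpx4-deficient libraries, against 367, 312 and 355 CPM in wild type, overlapping, with a log2 fold change of 0.21 ± 0.14 (SE, edgeR adjusted p = 1). The estimate for Srebf2 was thus positive in unstimulated and negative in stimulated cells, without a call in either. Lss averaged 22.5 ± 2.83 CPM in Gpx4-deficient and 34.7 ± 6.43 CPM in wild-type libraries, Nsdhl averaged 31.3 ± 4.37 CPM in Gpx4-deficient and 42.8 ± 8.35 CPM in wild-type libraries, and Srebf1 143 ± 20.2 CPM in Gpx4-deficient and 167 ± 1.95 CPM in wild-type libraries. The adjusted p was 1 for each.

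More of these genes were called on stimulation than between genotypes. In wild-type cells edgeR called 3 of 31 members (Msmo1 higher, Lbr and Abcg1 lower), against 1709 genes (11.5%). In Gpx4-deficient cells it called 5 of 31 (Fdps, Lbr, Dhcr7, Srebf2 and Abcg1), all lower, against 2266 genes (15.3%). Both shares are near the background. Stimulated and unstimulated wild-type libraries did not overlap for 19 members (61.3%), against 42% of all genes; in Gpx4-deficient cells they did not overlap for 13 (41.9%), against 29.8%.

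The counts of calls moved with the fit. Fitted on the compared groups alone, edgeR called 1 member in Gpx4-deficient cells (Srebf2, adjusted p = 0.0382), against 8.02% of all genes. In wild-type cells that fit called 9 (Pmvk, Idi1, Cyp51, Lbr, Msmo1, Nsdhl, Ebp, Dhcr7 and Abcg1), against 26.3% of all genes. In Gpx4-deficient cells, 8 members were called without stimulated Gpx4-deficient library 1 (adding Lss, Hsd17b7 and Srebf1), against 14.8% of all genes. There were 8 without library 2 (adding Mvk, Tm7sf2, Nsdhl and Abca1, and losing Abcg1), against 15.9%. Each added member was highest in the library left out, of the 3 stimulated Gpx4-deficient libraries. Without library 3, or without unstimulated Gpx4-deficient library 1, 3 were called (losing Fdps and Abcg1 each time), against 14.4% and 11.3% of all genes. In wild-type cells 5 were called without stimulated Gpx4-deficient library 3 (adding Idi1 and Dhcr7), against 13.8% of all genes.

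In wild-type cells, the separated members divided into 6 that were higher after stimulation (Hmgcs1, Idi1, Cyp51, Msmo1, Scap and Insig1) and 13 that were lower. In Gpx4-deficient cells none of the 13 separated members was higher after stimulation. The shares of all genes separated in each direction were not counted. Separation also depends on spread, and the median SD of the members' log2 CPM was 0.77 in stimulated Gpx4-deficient and 0.30 in stimulated wild-type libraries. No member was called for the difference between the genotypes' responses. The median log2 fold change of the synthesis enzymes was close in both genotypes, -0.64 in Gpx4-deficient and -0.62 in wild-type cells, against -0.02 and -0.03 for all genes. That of the SREBP control genes was -0.15 in Gpx4-deficient and 0.41 in wild-type cells, and that of the transport genes -0.80 and -0.40.

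Msmo1 was the one member called higher in the main edgeR fit. In wild-type cells it had 94.8, 105 and 86.3 CPM stimulated, against 37.9, 37.4 and 34.8 CPM unstimulated, and the log2 fold change was 1.38 ± 0.33 (SE, edgeR adjusted p = 0.0182). In Gpx4-deficient cells it had 70.1, 23.9 and 49.7 CPM stimulated, against 44.0, 30.7 and 36.5 CPM unstimulated, with overlap and a log2 fold change of 0.37 ± 0.33 (SE, edgeR adjusted p = 0.506). The wild-type call was lost when any of the 3 unstimulated wild-type libraries (adjusted p = 0.0648, 0.0672 and 0.0723 without libraries 1, 2 and 3) or stimulated wild-type library 2 (0.0706) was left out, with the log2 fold change at 1.29 or more each time.

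Idi1 and Cyp51 were also higher in every stimulated wild-type library than in any unstimulated one, without a call in the main edgeR fit. DESeq2 called Idi1 higher (DESeq2 adjusted p = 0.0159), where it called 20.3% of its genes. Idi1 had 98.6, 53.2 and 91.6 CPM stimulated and 43.0, 34.2 and 34.0 CPM unstimulated (log2 fold change 1.13 ± 0.36 SE, edgeR adjusted p = 0.0704). Cyp51 had 133, 118 and 110.3 CPM stimulated and 81.4, 54.3 and 74.9 CPM unstimulated (0.78 ± 0.42 SE, edgeR adjusted p = 0.309). In Gpx4-deficient cells the log2 fold changes were 0.19 ± 0.36 for Idi1 and -0.07 ± 0.42 for Cyp51 (SE), both with overlapping groups. Hmgcs1, the enzyme with the exact match to TCACNCCAC in its window, was called in neither genotype. It averaged 59.4 ± 22.6 CPM stimulated and 42.6 ± 15.9 CPM unstimulated in Gpx4-deficient cells (SD, n = 3 each). In wild-type cells it averaged 65.3 ± 16.2 CPM stimulated and 40.6 ± 5.89 CPM unstimulated (SD, n = 3 each).

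Lbr fell on stimulation in both genotypes. It had 189, 207 and 219 CPM in stimulated against 311, 293 and 435 CPM in unstimulated Gpx4-deficient libraries, a log2 fold change of -0.76 ± 0.16 (SE, edgeR adjusted p = 0.00833). In wild type it had 253, 234 and 189 CPM stimulated against 412, 468 and 420.0 CPM unstimulated, a log2 fold change of -0.94 ± 0.16 (SE, edgeR adjusted p = 0.00227). Stimulated and unstimulated libraries were apart in both genotypes, and both calls held whichever of the 12 libraries was left out.

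Dhcr7 fell in Gpx4-deficient cells, to 2.12, 5.83 and 7.35 CPM when stimulated, against 19.0, 43.5 and 41.7 CPM unstimulated. The groups were well apart, with a log2 fold change of -2.77 ± 0.53 (SE, edgeR adjusted p = 0.004), and the call held without any one library. In wild-type cells it had 16.6, 11.9 and 11.0 CPM stimulated against 29.3, 45.1 and 46.6 CPM unstimulated, also apart, with a log2 fold change of -1.61 ± 0.51 that missed the threshold (SE, edgeR adjusted p = 0.0634). DESeq2 called it lower in wild type (DESeq2 adjusted p = 0.00467), where it called 20.3% of its genes. edgeR called it in wild type without stimulated Gpx4-deficient library 1 (edgeR adjusted p = 0.0195) or library 3 (0.0368). In those fits no wild-type library was left out, and its log2 fold change was -1.62 and -1.61. The cause of these calls was not tested.

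Fdps had 11.3, 45.4 and 22.6 CPM in stimulated against 73.1, 92.2 and 67.4 CPM in unstimulated Gpx4-deficient libraries. It fell, by a log2 fold change of -1.55 ± 0.40 (SE, edgeR adjusted p = 0.0223), but the call was lost without unstimulated Gpx4-deficient library 1 (adjusted p = 0.0523) or 2 (0.0828), or stimulated Gpx4-deficient library 3 (0.0594). In wild-type cells it had 65.3, 46.9 and 71.5 CPM stimulated against 80.0, 80.1 and 76.6 CPM unstimulated, lower in each library but with a log2 fold change of only -0.37 ± 0.39 (SE, edgeR adjusted p = 0.692). Of the pseudogene copies of Fdps in the annotation, the 3 with a measured level (Gm3571, Gm5873 and Gm8163) together never exceeded 0.827 CPM, and Gm7513 and Gm7979 have no level here.

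Srebf2 fell on stimulation in Gpx4-deficient cells, with 188, 245 and 258 CPM stimulated against 424, 423 and 352 CPM unstimulated. The libraries were apart, with a log2 fold change of -0.79 ± 0.14 (SE, edgeR adjusted p = 0.00225), and the call held without any one library. In wild-type cells it had 335, 318 and 298 CPM stimulated against 367, 312 and 355 CPM unstimulated, overlapping, with a log2 fold change of -0.12 ± 0.14 (SE, edgeR adjusted p = 0.721). Among the other SREBP control genes, none was called in either genotype. The log2 fold changes in Gpx4-deficient and wild-type cells were -0.15 and -0.26 for Srebf1, 0.22 and 0.41 for Scap, -0.09 and 0.65 for Insig1, and -0.80 and 0.44 for Insig2.

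**Figure D4:**
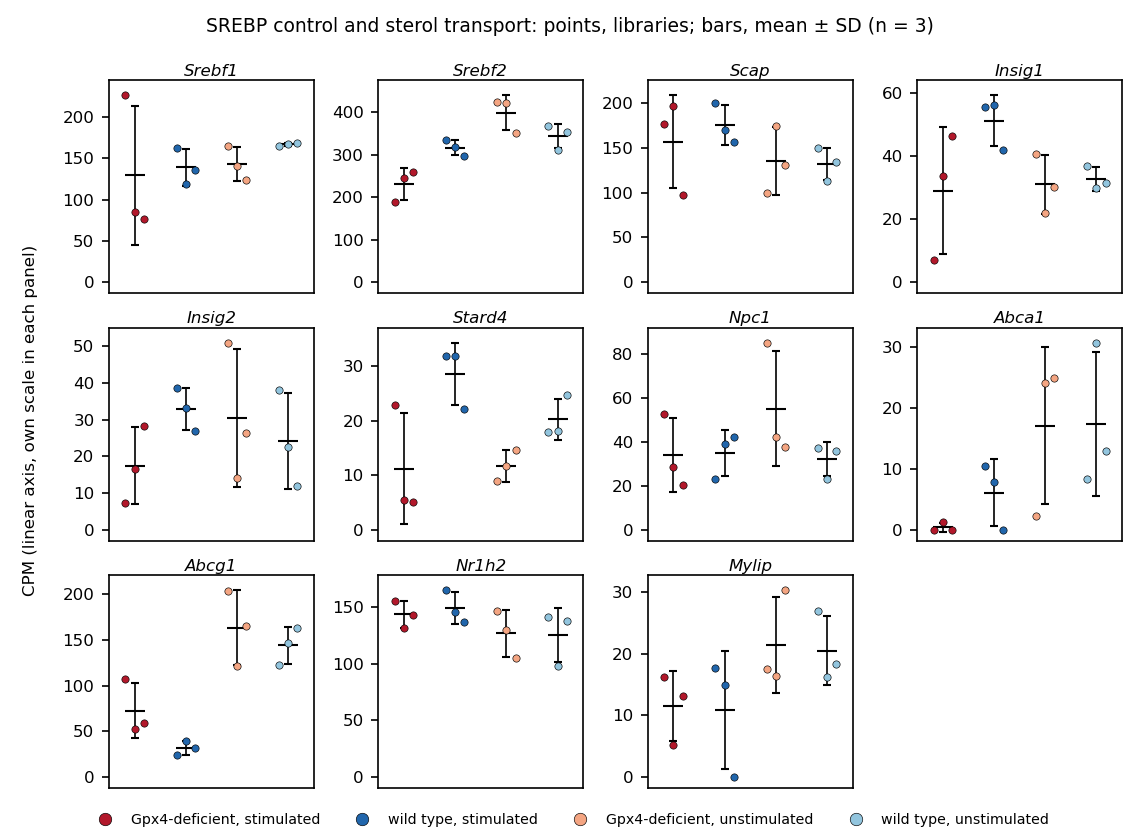
CPM of the 5 SREBP control genes and the 6 transport and efflux genes in every library (points), with group means ± SD over 3 libraries (bars), on a linear axis of its own scale in each panel. Srebf2 is lowest in stimulated Gpx4-deficient libraries, 188 to 258 CPM, and Abcg1 is lowest in stimulated wild-type libraries, 24.6 to 39.1 CPM.

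Abcg1 fell on stimulation in both genotypes. Gpx4-deficient libraries had 107, 52.3 and 58.8 CPM stimulated against 204, 122 and 165 CPM unstimulated, a log2 fold change of -1.17 ± 0.30 (SE, edgeR adjusted p = 0.0202). Wild-type libraries had 24.6, 39.1 and 31.8 CPM stimulated against 122, 147 and 163 CPM unstimulated, a log2 fold change of -2.18 ± 0.31 (SE, edgeR adjusted p = 0.000495). No stimulated library reached an unstimulated one of its genotype. The wild-type call held without any one library. The Gpx4-deficient call was lost without unstimulated Gpx4-deficient library 1 (adjusted p = 0.0914) or 3 (0.0611), or stimulated Gpx4-deficient library 2 (0.0698) or 3 (0.0588).

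The macrophage and monocyte markers also summed lower after stimulation, to 56.3 to 82.8 CPM against 142 to 174 CPM in Gpx4-deficient libraries and to 22.0 to 60.0 CPM against 156 to 280 CPM in wild-type libraries, and their part in the fall of Abcg1 was not tested. Abca1 was at 0, 1.23 and 0 CPM in stimulated against 2.25, 24.2 and 24.9 CPM in unstimulated Gpx4-deficient libraries, and at 10.5, 7.77 and 0 CPM against 8.40, 30.8 and 12.9 CPM in wild type. The main edgeR fit did not call Abca1 in either (edgeR adjusted p = 0.117 in Gpx4-deficient and 0.735 in wild-type cells). DESeq2 called it lower in Gpx4-deficient cells (DESeq2 adjusted p = 0.0175), where it called 25.8% of its genes. Nr1h2, Npc1, Stard4 and Mylip were not called in either genotype, with log2 fold changes of 0.18, -0.70, -0.07 and -0.90 in Gpx4-deficient cells and 0.25, 0.12, 0.50 and -0.91 in wild-type cells.

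The remaining synthesis enzymes were not called in either genotype by the main edgeR fit. Pmvk, Mvk, Tm7sf2 and Nsdhl were lower in every stimulated library than in any unstimulated library of the same genotype, in both genotypes. Pmvk averaged 8.60 ± 4.00 CPM stimulated and 16.3 ± 5.21 CPM unstimulated in Gpx4-deficient cells, and 9.35 ± 1.09 CPM stimulated and 18.2 ± 1.87 CPM unstimulated in wild-type cells. Ebp averaged 50.7 ± 15.2 CPM stimulated and 77.8 ± 19.3 CPM unstimulated in Gpx4-deficient cells, with overlap, and 55.4 ± 14.6 CPM stimulated and 95.5 ± 3.53 CPM unstimulated in wild-type cells, without overlap (adjusted p = 0.101). Mvd averaged 9.08 ± 10.4 CPM stimulated and 18.9 ± 13.7 CPM unstimulated in Gpx4-deficient cells, and 4.85 ± 4.00 CPM stimulated and 30.0 ± 1.36 CPM unstimulated in wild-type cells (adjusted p = 0.309). The log2 fold changes of Acat2, Fdft1, Sqle, Lss, Hsd17b7, Sc5d and Ggps1 ranged from -2.67 to 0.07 in Gpx4-deficient cells and from -1.0 to 1.06 in wild-type cells.

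**Figure D5:**
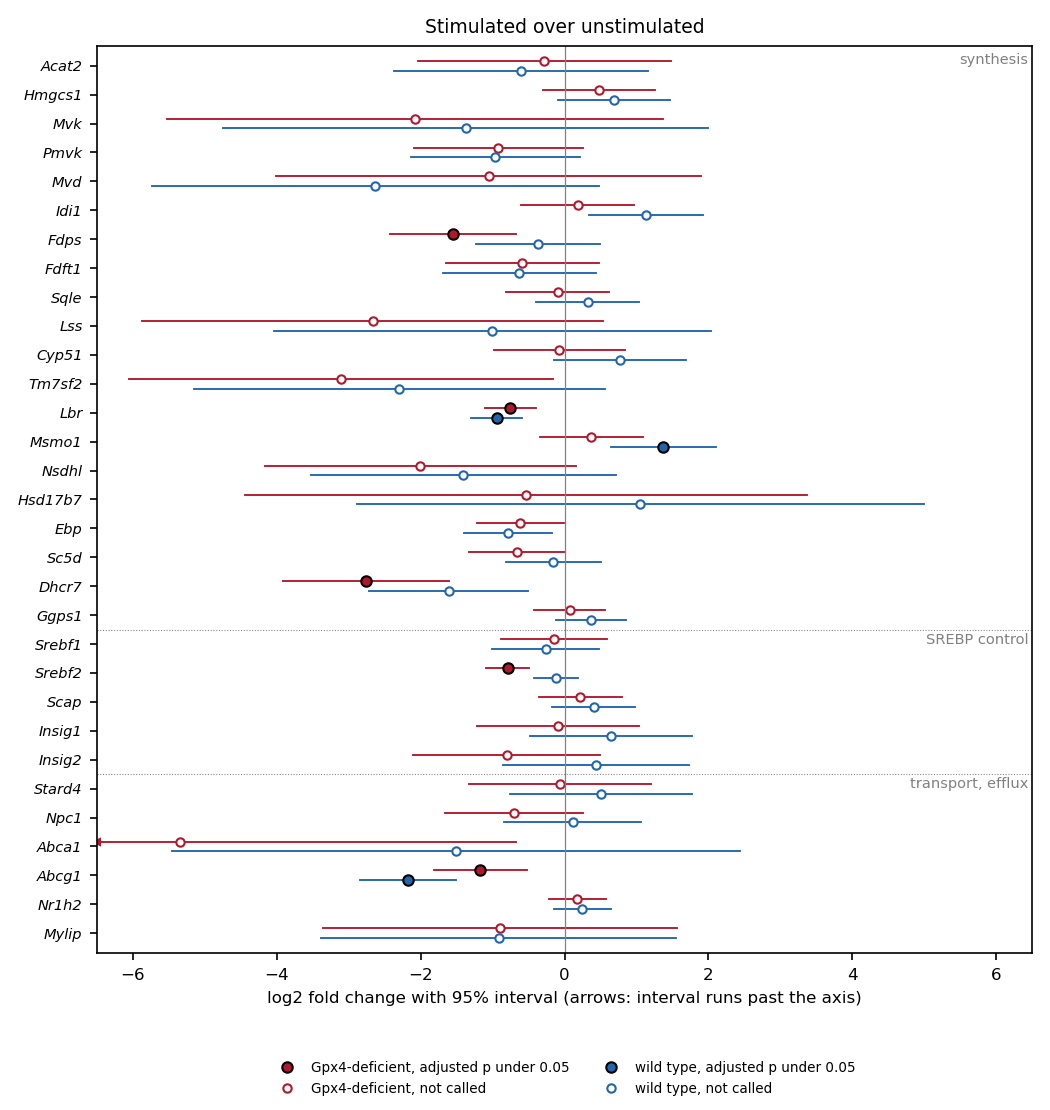
Log2 fold change of stimulated over unstimulated cells for all 31 members (rows), with 95% intervals, in Gpx4-deficient cells (red, upper of each pair) and wild-type cells (blue, lower); filled points passed an adjusted p of 0.05 and an arrow marks an interval past the axis. Lbr and Abcg1 are filled in both genotypes; Fdps, Dhcr7 and Srebf2 are filled in red and Msmo1 in blue, which does not by itself show that the genotypes differ.

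Whether the genotypes responded differently was tested directly, as the difference between the log2 fold changes of Gpx4-deficient and wild-type cells. edgeR called 0 of 31 members, against 30 of 14827 genes (0.202%). At an unadjusted p under 0.05 there were 2 members, Srebf2 and Abcg1, against 8.75% of all genes. DESeq2 called 0 of the 29 members it tested and limma-voom 0 of the 31, of 520 and 0 genes called in all. The difference for Srebf2 was -0.67 ± 0.19 (SE, edgeR adjusted p = 0.314) and for Abcg1 1.01 ± 0.42 (SE, edgeR adjusted p = 0.534). Msmo1 and Fdps followed, with differences of -1.0 ± 0.46 (SE, edgeR adjusted p = 0.575) and -1.19 ± 0.56 (SE, edgeR adjusted p = 0.578). The difference was negative for 22 of 31 members, against 50.7% of all genes, with a median of -0.57 over the members and -0.01 over all genes. Without stimulated Gpx4-deficient library 1, Lss and Hsd17b7 were called, against 0.823% of all genes, and without library 2, Mvk was, against 1.05%. These genes each had a library near 0 in that group and were highest there in the library left out. The 4 comparisons between groups share libraries with each other and with this test, so they do not count as separate evidence.

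Levels of different genes were compared only after dividing CPM by exon length in kilobases. That length merges the exons of all annotated transcripts of a gene, so it can exceed the length of the mRNA. For Fdps it was 4208 bases, against 1382 bases for its longest coding transcript. The ranks below depend on this choice. On that scale Lbr ranked first of the 31 in every group, at 43.1 CPM per kb in Gpx4-deficient and 47.3 in wild-type cells when stimulated, and at 72.7 in Gpx4-deficient and 91.0 in wild-type cells when not. In stimulated cells of both genotypes Nr1h2 and Srebf2 followed, Nr1h2 at 42.7 CPM per kb in Gpx4-deficient and 44.5 in wild-type cells, and Srebf2 at 32.1 in Gpx4-deficient and 44.1 in wild-type cells. Abca1, Tm7sf2, Hsd17b7 and Lss were at 3.21 CPM per kb or less in every group. Cyp51 ranked 10 in stimulated Gpx4-deficient and 4 in stimulated wild-type cells, with 10.1 and 27.3 CPM per kb.

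Genes that process SREBPs or degrade the proteins of the sensor were examined beside the members. Of 9 such genes, 1 was called in any comparison, Mbtps1, the protease that makes the first cut in SREBPs. The call was for stimulation in Gpx4-deficient cells, where 15.3% of all genes were called. Mbtps1 fell there, to 144 ± 6.53 CPM against 222 ± 51.7 CPM unstimulated (SD, n = 3 each). Its log2 fold change was -0.63 ± 0.19 (SE, edgeR adjusted p = 0.0434). Of 21 tested genes of sterol transport and storage, 1 was called between genotypes, in stimulated cells, where 2.27% of all genes were called. That gene was Osbpl9, which encodes an oxysterol-binding-protein relative. It averaged 103 ± 22.0 CPM in stimulated Gpx4-deficient and 219 ± 23.1 CPM in stimulated wild-type libraries, a log2 fold change of -1.08 ± 0.17 (SE, edgeR adjusted p = 0.00797).

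On stimulation, 1 of those 21 was called higher and 4 lower in Gpx4-deficient cells, where 15.3% of all genes were called, and 2 higher and 5 lower in wild-type cells, where 11.5% were. Gramd1a, a sterol carrier at contacts between the endoplasmic reticulum and the plasma membrane, fell in both genotypes, to 129 ± 61.0 against 786 ± 96.5 CPM in Gpx4-deficient cells (adjusted p = 7.84e-05) and to 212 ± 28.3 against 592 ± 76.5 CPM in wild-type cells (adjusted p = 0.00356). Its relative Gramd1b rose in wild-type cells, to 141 ± 23.2 against 47.6 ± 2.64 CPM (edgeR adjusted p = 0.0008). In Gpx4-deficient cells Gramd1b averaged 105 ± 30.7 CPM stimulated and 72.9 ± 14.3 CPM unstimulated, and was not called. Abca7 fell in both genotypes, with log2 fold changes of -1.81 in Gpx4-deficient and -0.88 in wild-type cells (edgeR adjusted p = 0.000301 and 0.0277). Osbpl8 rose in both, with log2 fold changes of 1.81 in Gpx4-deficient and 1.16 in wild-type cells (edgeR adjusted p = 0.000782 and 0.0133). Npc2 and the lysosomal lipase Lipa, which act before Npc1, fell in wild-type cells, with log2 fold changes of -0.96 and -1.74. In Gpx4-deficient cells both were also lower without overlap, with log2 fold changes of -0.52 and -0.89, but were not called. Apoe, an apolipoprotein that accepts cholesterol and is abundant in macrophages, fell in both genotypes, beside the macrophage markers given above.

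Of 6 tested genes of LXR signalling, 1 was called higher and 3 lower on stimulation in Gpx4-deficient cells, against 15.3% of all genes, and 1 lower in wild-type cells, against 11.5%. The difference between the genotypes' responses was called for none of the 6. Smpdl3a, an LXR target, fell in both, to 54.3 ± 12.0 CPM stimulated against 231 ± 8.30 CPM in Gpx4-deficient cells and to 30.9 ± 10.5 against 269 ± 16.8 CPM in wild-type cells (adjusted p = 0.000113 in Gpx4-deficient and 6.36e-06 in wild-type cells). Rxra, the partner receptor of LXRs, fell in Gpx4-deficient cells, to 7.53 ± 3.22 CPM against 41.9 ± 25.8 CPM (adjusted p = 0.00642). In wild-type cells it averaged 19.5 ± 2.62 CPM stimulated and 35.7 ± 10.4 CPM unstimulated, also without overlap but not called. Lpcat3, which puts polyunsaturated chains into phospholipids, rose in Gpx4-deficient cells, to 98.6 ± 39.2 CPM against 42.6 ± 3.98 CPM (adjusted p = 0.0168). In wild-type cells it averaged 88.8 ± 12.6 CPM stimulated and 56.0 ± 16.9 CPM unstimulated, again without overlap and not called. Nr1h3, the gene of LXR alpha, had 0 counts in all 3 stimulated Gpx4-deficient libraries and 1.66 to 3.15 CPM in the unstimulated ones. In wild type it had 1.71, 0 and 0.0404 CPM stimulated and 1.39, 3.45 and 8.35 CPM unstimulated, with overlap.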

How the data were processed

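Messenger RNA was sequenced in 12 libraries, 3 per group. The authors deposited RSEM expected counts per gene symbol, 1 column per library; the build was GRCm38 per the submitters' processing notes, with tool versions and aligner not given in the sources used here. Expected counts were rounded to whole numbers, scaled by TMM and filtered by edgeR's filterByExpr. The main test was edgeR's quasi-likelihood test (edgeR 4.0.16, R 4.3.3) on all 12 libraries with 4 group means, with Benjamini-Hochberg adjustment over all 14827 genes tested; called means an adjusted p under 0.05. Alternatives were DESeq2 1.42.0, limma-voom (limma 3.58.1), other scalings, no filter, compared groups only, a replicate block and leaving out each library. CPM are edgeR's cpm values after TMM scaling, and ± in levels is the SD over 3 libraries. A level of 5 CPM corresponds to at least 123 counts in each library. The procedure was tested on simulated data.

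The 31 genes, the companion lists and the marker lists were chosen with earlier results of these data known. Full values are given for the members called in a comparison, or for the 4 with the smallest p where fewer were called. They are also given for any regulator or transport gene. Of each companion list, up to 4 called genes are named per comparison, in order of p. Promoter sequences are from RefSeq.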

Additional observations from a re-analysis of the deposited data

How the results depend on the processing

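Among the 21 pairs of a member and a comparison that the naming rule chose, no direction was reversed by an alternative run; of their recomputed values 380 stayed on their side of the threshold, 13 passed it and 15 lost it. Over all 31 members, values near 0 changed sign under other scalings: Fdft1 under RLE (genotype, stimulated), and Msmo1, Ggps1 and Nr1h2 under library totals (genotype, unstimulated). DESeq2 called 218 genes (Gpx4-deficient against wild type, unstimulated), 1876 (stimulated), 2899 (stimulation in wild type), 3948 (stimulation in Gpx4-deficient cells) and 520 (difference of responses). Of the 29 members it tested, it called 7 for genotype in stimulated cells, against 13.1% of its genes. For stimulation it called 6 in wild-type cells (Idi1 and Msmo1 higher, Lbr, Ebp, Dhcr7 and Abcg1 lower), against 20.3%. In Gpx4-deficient cells it called 8 (Fdps, Tm7sf2, Lbr, Sc5d, Dhcr7, Srebf2, Abca1 and Abcg1, all lower), against 25.8%. The limma-voom test called 21 genes for genotype in unstimulated cells and 0 for the difference of responses. Among the members it called 2 for genotype in stimulated cells, against 3.19% of all genes. For stimulation in Gpx4-deficient cells it called 9, against 20% of all genes. Its synthesis medians were -1.26, -0.93 and -0.98 for genotype in stimulated cells, stimulation in Gpx4-deficient cells and the difference. On compared groups only, 22 genes were called for genotype in stimulated cells, 3499 for stimulation in wild-type cells (9 members) and 1022 in Gpx4-deficient cells (1 member). The cause of these moves was not tested.

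Same-numbered libraries shared only a number: their deviations correlated at -0.02 to 0.03, and 9 of 24 correlated best with their own number. With the replicate block, 3 genes were called for genotype in unstimulated cells, 171 in stimulated cells and 5 for the difference. The 3 members called for stimulation in wild-type cells were the same genes, against 10% of all genes. The 5 called in Gpx4-deficient cells were also the same, against 12.8%. With the replicate block kept within each genotype, the difference had 0 calls, and the synthesis medians were -0.92 for stimulation in Gpx4-deficient cells and -0.78 for the difference.

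Leaving out 1 library gave 3 to 14 genes called for genotype in unstimulated cells (0 members), 117 to 658 in stimulated cells (0 to 5 members), 1150 to 2197 for stimulation in wild-type cells (2 to 5 members), 1649 to 2521 in Gpx4-deficient cells (3 to 8 members) and 2 to 167 for the difference (0 to 2 members), with synthesis medians for the difference of -0.60 to -0.24. Low genes limit precision: Mvk, Mvd, Lss, Hsd17b7, Tm7sf2 and Abca1 had standard errors of 1.25 to 2.14 on the log2 scale in the comparisons between 2 groups.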

Other observations

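Fatty acid synthesis, the other arm of SREBP control, was examined through 14 genes, of which 10 were tested. None was called between genotypes in either state. On stimulation, 2 rose and 1 fell in each genotype, where 15.3% of all genes were called in Gpx4-deficient and 11.5% in wild-type cells. Fasn, the fatty acid synthase, rose to 508 ± 43.6 CPM against 250 ± 11.2 CPM unstimulated in Gpx4-deficient cells (adjusted p = 0.000253) and to 506 ± 81.3 CPM against 223 ± 19.6 CPM in wild-type cells (adjusted p = 7.94e-05). Scd2, a stearoyl-CoA desaturase that makes monounsaturated chains, fell to 32.1 ± 13.3 CPM against 165 ± 14.0 CPM in Gpx4-deficient cells (adjusted p = 8.45e-05) and to 55.3 ± 4.34 CPM against 165 ± 8.24 CPM in wild-type cells (adjusted p = 0.00138). Elovl6, a chain elongase, rose in Gpx4-deficient cells, to 76.8 ± 34.9 CPM against 13.3 ± 9.48 CPM (edgeR adjusted p = 0.015). In wild-type cells it averaged 38.6 ± 12.3 CPM stimulated and 13.9 ± 8.34 CPM unstimulated, not called. Mid1ip1, an activator of acetyl-CoA carboxylase, rose in wild-type cells, to 75.2 ± 17.3 CPM against 22.8 ± 9.68 CPM (edgeR adjusted p = 0.00934). In Gpx4-deficient cells it averaged 54.7 ± 17.4 CPM stimulated and 41.5 ± 7.47 CPM unstimulated, not called. The difference of responses was called for none of the 10.

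The nonsterol branches of the mevalonate pathway, which make dolichol, coenzyme Q and prenyl groups and modify a tRNA, were examined through 13 genes, and edgeR called none in any of the 5 comparisons. At an unadjusted p under 0.05 there was 1 of the 13 for genotype in stimulated cells, against 2715 of all 14827 genes (18.3%). For stimulation there were 2 of the 13 in wild-type cells, against 3452 of all genes, and 1 in Gpx4-deficient cells, against 4410. Trit1, which isopentenylates the selenocysteine tRNA, had 20.7, 14.6 and 0.754 CPM in stimulated Gpx4-deficient libraries, against 28.3, 22.1 and 27.1 CPM in stimulated wild-type libraries, and was named after its values were seen.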
